A study of Homo sapiens with 8 samples.

Results

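The genes described are the 7 integrin subunit genes whose products make up the receptors for vitronectin and for other proteins with the tripeptide RGD, namely the alpha subunits ITGAV, ITGA5 and ITGA8 and the beta subunits ITGB1, ITGB3, ITGB5 and ITGB8. They were chosen by name and not by a filter on their values, but with earlier results of these data known. All 7 were among the 18201 genes that had enough reads to be tested, out of 58217 genes with a matched transcript. The cells were oligodendrocyte progenitor cells (OPCs) derived from the human embryonic stem cell line H9, and none of the groups carried the forced SOX10 expression that the study used elsewhere. The cells of every group were kept for 2 days in OPC medium on a coated plate, and the coating was the only labelled difference. Matrigel, a basement membrane extract from a mouse tumour that is rich in laminin and collagen IV, was the control (replicates 2 and 3). The other coatings were VN, recombinant vitronectin (replicates 1 to 3), and VNP2, a designed RGD peptide derived from vitronectin that was fused to a mussel adhesive protein and bound to the plate (replicates 1 to 3). All libraries came from the same cell line, and the labels do not say whether replicates were separate cultures, so the p-values measure the spread between these libraries, which may be technical.

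Integrins are receptors of 1 alpha and 1 beta chain that span the plasma membrane, bind matrix proteins outside the cell and anchor the actin cytoskeleton inside it. The ITGAV product pairs with the products of ITGB1, ITGB3, ITGB5, ITGB6 and ITGB8, whereas those of ITGA5 and ITGA8 pair with that of ITGB1 alone. The pairs of ITGAV with ITGB3 and ITGB5 are the classical vitronectin receptors, ITGA5 with ITGB1 is the fibronectin receptor, ITGA8 with ITGB1 binds nephronectin, and ITGAV with ITGB8 activates latent TGF-beta. In the oligodendrocyte lineage the ITGAV receptors are known to exchange their beta partner as progenitors mature. The libraries held 37997896 to 39429453 estimated counts, and the OPC markers OLIG1, OLIG2, NKX2-2, PDGFRA and CSPG4 were measured in all of them, whereas SOX10, which defines the lineage from the progenitor stage on, was at 0 TPM in both Matrigel libraries and at most at 0.0778 TPM elsewhere. TPM (transcript abundance scaled to a fixed library total and corrected for transcript length) is used for levels between genes. VN replicate 1 stood apart from the other VN libraries, with a median chi-square per gene of 2.35 and 2.75 against them, compared with 0.713 to 1.19 for all other pairs within a group and 0.455 expected from sampling alone. For this reason the fold changes of the 7 genes on VN against Matrigel are given below with and without it. Of the 23 fold changes that involve VN for the called genes picked by rule from the other lists, 23 kept their direction and call without it and shifted by at most 0.076 on the log2 scale.

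The site in vitronectin that these receptors recognise is shown first, since the VN coating holds it and the VNP2 peptide was derived from it. In VTN-201, a coding transcript of VTN, the RGD codons, in capitals, encode residues 64 to 66 of 478.
VTN RGD site: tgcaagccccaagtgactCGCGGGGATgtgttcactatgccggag
The 3 alpha subunits share a juxtamembrane motif, GFFxR in amino acid letters, by which the alpha chain holds on to its beta partner. The last 40 codons of each leading transcript are shown 5′ to 3′ with the codons of GFFxR in capitals, and each alpha tail held it 1 time. The exact form GFFKR was found in ITGAV and ITGA5 and not in ITGA8.
ITGAV tail: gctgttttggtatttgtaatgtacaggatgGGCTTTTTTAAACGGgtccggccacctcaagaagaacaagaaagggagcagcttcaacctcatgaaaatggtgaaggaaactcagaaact
ITGA5 tail: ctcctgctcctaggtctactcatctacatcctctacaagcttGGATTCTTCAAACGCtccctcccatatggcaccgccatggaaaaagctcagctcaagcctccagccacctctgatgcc
ITGA8 tail: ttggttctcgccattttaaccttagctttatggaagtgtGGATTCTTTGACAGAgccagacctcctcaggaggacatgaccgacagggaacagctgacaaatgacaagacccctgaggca
The beta tails carry the sites at which talin and kindlin dock, which have the form NxxY in amino acid letters. The last 60 codons of the beta subunits are shown with the codons of every NxxY in capitals. ITGB1, ITGB3 and ITGB5 held 2 such sites each and ITGB8 held 0. Both sites had the narrower form NPxY in ITGB1, against 1 of the sites in ITGB3 and in ITGB5.
ITGB1 tail: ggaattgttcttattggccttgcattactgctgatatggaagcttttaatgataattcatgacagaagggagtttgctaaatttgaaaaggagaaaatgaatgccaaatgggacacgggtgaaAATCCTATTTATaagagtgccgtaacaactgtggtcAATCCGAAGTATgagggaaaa
ITGB3 tail: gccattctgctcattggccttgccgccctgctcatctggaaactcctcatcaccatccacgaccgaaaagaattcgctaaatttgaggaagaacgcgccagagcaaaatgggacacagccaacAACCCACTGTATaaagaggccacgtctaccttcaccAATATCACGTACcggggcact
ITGB5 tail: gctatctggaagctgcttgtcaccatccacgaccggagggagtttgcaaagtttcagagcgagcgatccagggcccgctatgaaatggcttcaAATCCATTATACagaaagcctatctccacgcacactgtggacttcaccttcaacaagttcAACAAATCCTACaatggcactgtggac
ITGB8 tail: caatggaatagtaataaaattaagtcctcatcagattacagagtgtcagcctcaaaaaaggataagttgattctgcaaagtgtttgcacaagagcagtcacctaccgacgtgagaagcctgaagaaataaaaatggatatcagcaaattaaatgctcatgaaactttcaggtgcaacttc
Over the whole proteins, of 769 to 1063 residues, the alpha subunits were 46.7 to 48.5% identical. Among the beta subunits ITGB3 and ITGB5 were the closest pair (56.9%), and ITGB8 was the most distant from the other three (37.5 to 38.3%). The sequences come from GENCODE v29 (GRCh38), and the transcripts shown carried between 64.9 and 100% of the TPM of their gene in each library. In ITGB1, the gene with the most TPM, this share was 95.8 to 97.2%, and that of ITGB1-205, a transcript with another tail, was close to 0.

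The beta subunit shared by most of these receptors was also the most abundant of the 7 genes. ITGB1 (chromosome 10, 32900319 to 33005792, minus strand) was measured at 443 and 449 TPM on Matrigel, at 358, 384 and 375 TPM on VN and at 378, 366 and 362 TPM on VNP2, which is higher than 98.05 to 98.43% of the genes tested. ITGAV (chromosome 2, 186590065 to 186680901, plus strand), which encodes the vitronectin receptor alpha chain, followed with group means of 82.0 to 96.5 TPM. ITGB5 (chromosome 3, 124761948 to 124901418, minus strand) had group means of 38.01 to 48.43 TPM and ITGA5 (chromosome 12, 54395261 to 54419460, minus strand) of 15.8 to 26.6 TPM. ITGB8 (chromosome 7, 20330702 to 20415754, plus strand) lay at 12.6 to 14.6 TPM. ITGB3 (chromosome 17, 47253846 to 47311816, plus strand), the beta chain of a classical vitronectin receptor, was at 1.03 to 1.47 TPM. ITGA8 (chromosome 10, 15513949 to 15720125, minus strand) was at 0.413 to 1.15 TPM. This order from ITGB1 to ITGA8 was that of the Matrigel libraries, in which no neighbours overlapped. On VN the libraries of ITGA5 and ITGB8 overlapped (14.97 to 17.92 and 12.43 to 15.37 TPM). On VNP2 they overlapped again, at 15.25 to 16.31 and 13.80 to 15.30 TPM, and the mean of ITGA8 lay above that of ITGB3 with overlapping libraries. The classical ITGB3 chain was scarce next to ITGB5 on every coating, with a ratio of ITGB5 to ITGB3 TPM between 23.9 and 51.0 in all libraries.

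**Figure D1:**
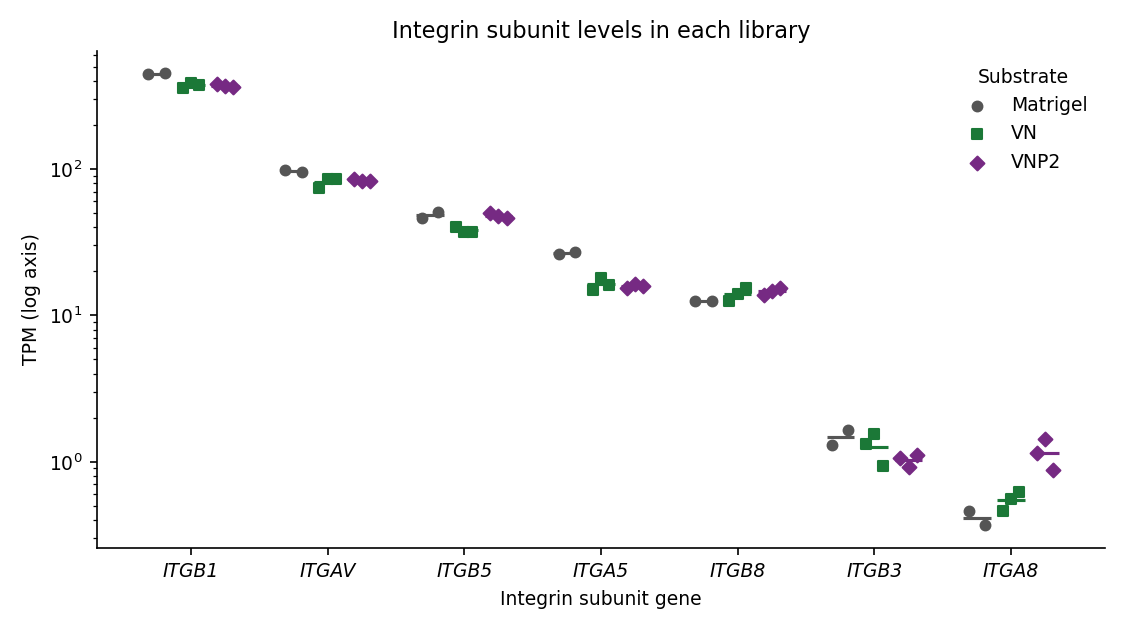
TPM on a log axis (y) of the 7 integrin subunit genes (x) in each library, with circles for Matrigel (n = 2), squares for VN (n = 3) and diamonds for VNP2 (n = 3), and a bar at each group mean. ITGB1 is highest on every substrate, ITGA5 is lower on both vitronectin coatings than on Matrigel, and ITGA8 is highest on VNP2.

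To ask whether the coating moved these genes, the libraries were compared across the 3 substrates and in pairs in 1 edgeR quasi-likelihood fit over all genes, and a gene was called at a Benjamini-Hochberg adjusted p under 0.05. Of the 7 genes, 5 differed across the substrates (ITGAV, ITGA5, ITGA8, ITGB1 and ITGB5), where 19.3% of all genes were called. On VN, 4 were below Matrigel and 0 above, beside 15.2% of all genes called, 9.41% lower and 5.81% higher. On VNP2, 3 were below Matrigel and 1 above, beside 16.6% of all genes called, 9.13% lower and 7.45% higher. Between VNP2 and VN, 2 were higher on VNP2 and 0 lower, beside 5.18% of all genes called, 3.07% higher and 2.1% lower. DESeq2 and limma gave the same counts in each direction for the 3 pairs, and where 0 were called, 0 passed at an unadjusted p under 0.05 in edgeR. The median log2 fold change of the 7 genes was -0.31 on VN against Matrigel and -0.28 on VNP2 against Matrigel, next to 0.0083 and 0.0030 over all genes tested. For VNP2 against VN it was 0.037, next to -0.0026 over all genes. The comparisons of VN and of VNP2 with Matrigel share the same 2 Matrigel libraries, so their values are set side by side below and are not independent. In these bulk RNA libraries, fewer cells of a type and less RNA per cell cannot be told apart.

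**Figure D2:**
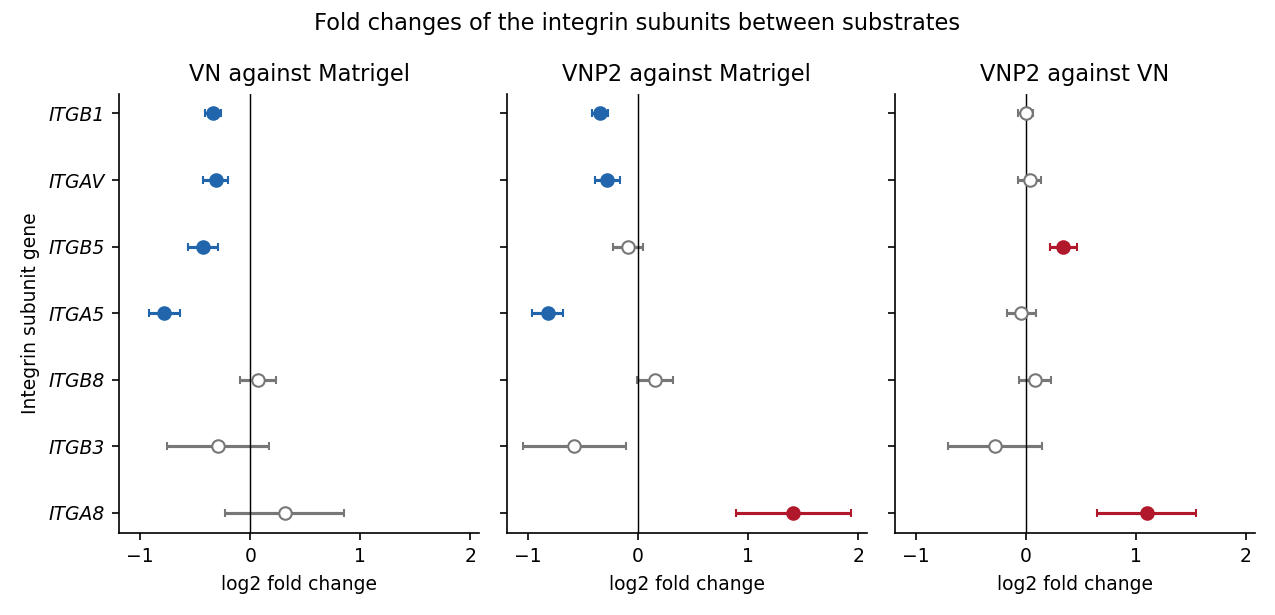
Log2 fold changes (x) with 95% intervals of the edgeR fit for the 7 genes (y) in the 3 pairs of substrates. Filled points were called (blue lower, red higher) and open points were not. ITGB1, ITGAV and ITGA5 are lower on both coatings than on Matrigel, ITGB5 is lower on VN alone of the comparisons with Matrigel, and ITGA8 is higher on VNP2 than on either of the others.

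ITGA5, which encodes the alpha chain of the fibronectin receptor, had the largest fall of the 7 genes against Matrigel. Its normalized counts, which are scaled between libraries but not for gene length, were 2704 and 2760.1 on Matrigel, 1484, 1731 and 1560 on VN against 1500.1, 1603 and 1543 on VNP2. All 6 libraries from the vitronectin coatings lay below both Matrigel libraries. The level fell by 41.8% on VN (log2 fold change -0.78, SE 0.0639, adjusted p = 2.54e-05 in edgeR's quasi-likelihood test) and by 43.3% on VNP2 (-0.82, SE 0.0638, adjusted p = 1.17e-05). Between VNP2 and VN the log2 difference was -0.039, with a 95% interval of -0.17 to 0.092. Without VN replicate 1 the fall on VN was -0.73 (adjusted p = 5.5e-05).

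ITGB1, the common beta chain, fell by about the same amount on both coatings. On Matrigel it was measured at 33607 and 33934 normalized counts. On VN the values were 26136, 27293 and 26606, and on VNP2 they were 27377, 26442 and 26123, so the groups on vitronectin coatings overlapped each other and lay below both Matrigel libraries. ITGB1 fell by 21.0% on VN (log2 fold change -0.34, SE 0.0326, edgeR adjusted p = 7.53e-05) and by 21.1% on VNP2 (-0.34, SE 0.0326, adjusted p = 4.94e-05). The difference between the 2 coatings had an interval of -0.067 to 0.064 on the log2 scale, the narrowest of the 7 genes. Leaving out VN replicate 1 gave -0.33 for VN against Matrigel (adjusted p = 0.000109).

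ITGAV, the alpha chain of the vitronectin receptors, fell on both coatings as well. Matrigel libraries held 10992 and 10664 normalized counts of ITGAV, VN libraries 8041, 9035 and 9035, and VNP2 libraries 9189, 8796 and 8811. VN replicate 1 was the lowest of all, and the 6 libraries on vitronectin coatings did not overlap with Matrigel. The decrease was 19.6% on VN (log2 fold change -0.31, SE 0.0513, edgeR adjusted p = 0.0026) and 17.5% on VNP2 (-0.28, SE 0.0513, adjusted p = 0.00405). Without VN replicate 1 the value for VN was -0.26 (adjusted p = 0.000703), and without Matrigel replicate 2 the value for VNP2 was -0.25 with an adjusted p of 0.0508, which no longer passed. VNP2 and VN differed by 0.037 on the log2 scale (95% interval -0.066 to 0.14).

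ITGB5, which encodes the beta chain of a vitronectin receptor that also internalises vitronectin, set the 2 vitronectin coatings apart. Its normalized counts were 3545 and 3847 on Matrigel, 2947, 2654 and 2643 on VN against 3643, 3452 and 3341 on VNP2. The VN libraries lay below all others, while Matrigel and VNP2 overlapped. ITGB5 fell by 25.6% on VN against Matrigel (log2 fold change -0.43, SE 0.0609, edgeR adjusted p = 0.0011) and was 26.6% higher on VNP2 than on VN (0.34, SE 0.0551, adjusted p = 0.00553). For VNP2 against Matrigel the log2 difference was -0.087 (95% interval -0.22 to 0.048, adjusted p = 0.394). VN replicate 1 was the highest of the VN libraries, and without it the fall on VN was -0.48 (adjusted p = 0.00036) and the rise on VNP2 over VN was 0.39 (adjusted p = 0.00202).

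ITGA8, the alpha chain of the nephronectin receptor, rose on VNP2 from a low level. Matrigel libraries held 60.01 and 48.05 normalized counts, VN libraries 57.7, 68.2 and 76.4, and VNP2 libraries 143, 180 and 110. All 3 VNP2 libraries were above the others, and Matrigel and VN overlapped. The level on VNP2 was 2.66-fold that on Matrigel (log2 fold change 1.41, SE 0.235, edgeR adjusted p = 0.00224) and 2.14-fold that on VN (1.10, SE 0.203, adjusted p = 0.0112). VN against Matrigel gave 0.31 with an interval of -0.23 to 0.85 (adjusted p = 0.431), and 0.42 without VN replicate 1 (adjusted p = 0.301). Without VN replicate 1 VNP2 was still above VN, by 0.99 on the log2 scale (adjusted p = 0.0265). These values rest on 53 to 168 estimated counts per library, and on VNP2 the SD was 24.4% of the mean. The leading transcript ITGA8-201 held on average 100% of the ITGA8 TPM on Matrigel, 84.9% on VN and 84.5% on VNP2. The rest lay in ITGA8-203, a short transcript with at most 3 counts in a library.

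ITGB3 and ITGB8 passed the test in no pair. ITGB3 held 117 and 146 normalized counts on Matrigel, 114, 130 and 78.6 on VN against 90.2, 79.2 and 94.9 on VNP2. The VNP2 libraries lay below both Matrigel libraries, but with a log2 difference of -0.58 and a 95% interval of -1.04 to -0.11 the adjusted p was 0.0923 in edgeR, and VN overlapped with both. For VN against Matrigel the difference was -0.30 (adjusted p = 0.381), and -0.34 without VN replicate 1 (adjusted p = 0.350). At 80 to 152 estimated counts per library, differences of ITGB3 within these intervals could not be resolved. ITGB8, the beta chain whose receptor frees TGF-beta from its latent complex, held 1877 and 1845 normalized counts on Matrigel, 1777, 1941 and 2138 on VN against 1958, 2085 and 2162 on VNP2. The VNP2 libraries were above both Matrigel libraries by a log2 difference of 0.15 (95% interval -0.013 to 0.32, adjusted p = 0.207), and VN spread across the range of the others. VN replicate 1 was the lowest VN library, and without it VN against Matrigel stood at 0.13 (adjusted p = 0.170).

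As the chains work in pairs, their relative TPM was also described, with no test. Summed over the 7 genes, the libraries held 627 to 636 TPM on Matrigel, 502 to 540 TPM on VN and 524 to 545 TPM on VNP2, so that neither vitronectin coating overlapped with Matrigel. Of these sums ITGB1 alone held 443 and 449 TPM on Matrigel, 358 to 384 TPM on VN and 362 to 378 TPM on VNP2. ITGAV made up 77.75 to 78.55% of the TPM of the 3 alpha subunits on Matrigel, 82.27 to 83.64% on VN and 82.21 to 83.93% on VNP2. The ratio of ITGAV to ITGA5 was 3.63 ± 0.130 on Matrigel (SD, n = 2), 5.02 ± 0.267 on VN (SD, n = 3) and 5.29 ± 0.296 on VNP2 (SD, n = 3). The alpha balance overlapped between the vitronectin coatings and did not overlap with that on Matrigel. ITGB1 held 87.42 to 88.02% of the beta TPM on Matrigel, 86.93 to 87.96% on VN and 85.30 to 85.37% on VNP2, where all 3 libraries were below the rest. Of the TPM of the beta chains other than ITGB1, ITGB5 held 76.88 to 78.17% on Matrigel, 69.37 to 74.45% on VN and 73.68 to 77.06% on VNP2. The VN range lay below that of Matrigel and overlapped with that of VNP2. The ratio of ITGA5 to ITGA8 was 57.2 and 73.0 on Matrigel, 25.9 to 32.6 on VN and 11.3 to 17.9 on VNP2, with no overlap between any groups.

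**Figure D3:**
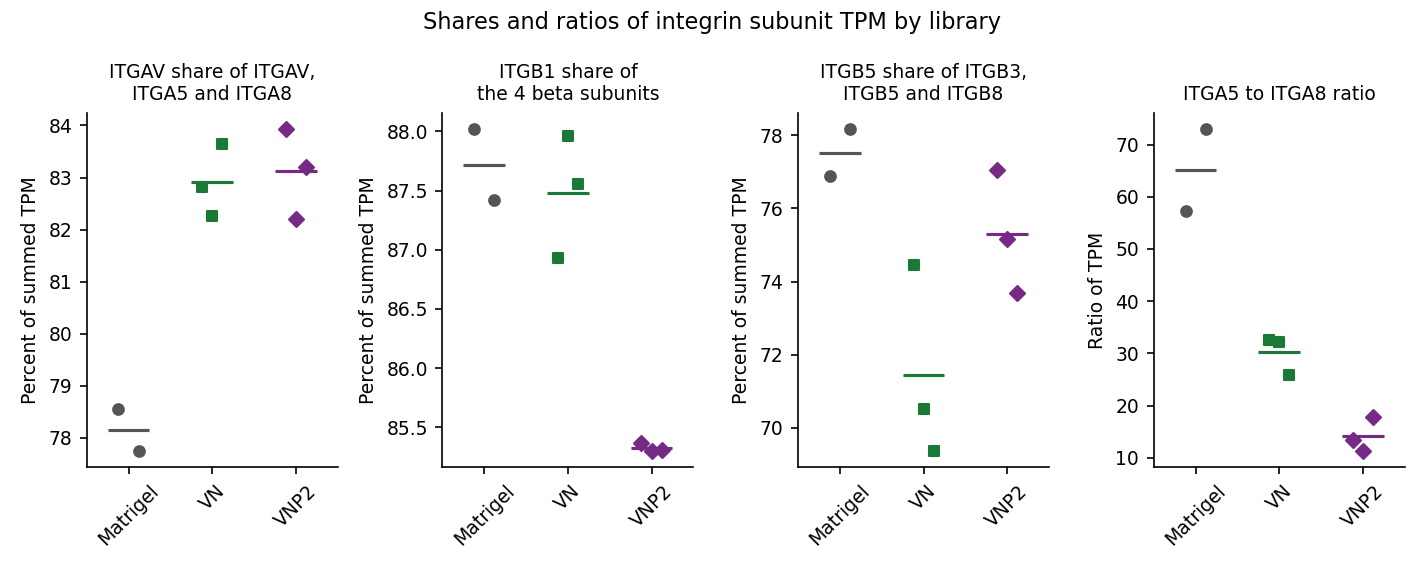
Shares of summed TPM in percent (3 panels) and the ratio of ITGA5 to ITGA8 TPM (right panel) on the y axes by substrate (x), with a point for each library and a bar at the mean. The axes of the shares do not start at 0. ITGAV takes 77.75 to 78.55% of the alpha TPM on Matrigel and over 82.2% on both vitronectin coatings, and the ratio of ITGA5 to ITGA8 separates all 3 substrates.

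Inside the cell, the beta tails shown above recruit adaptors that link them to actin. Of 28 adaptor and signalling genes, all of them tested, 13 were lower on VN than on Matrigel and 0 higher, with a median log2 fold change of -0.25. On VNP2 the counts against Matrigel were also 13 lower and 0 higher, with a median of -0.26. Over all genes 9.41% were lower and 5.81% higher on VN, and 9.13% lower and 7.45% higher on VNP2. VCL, which encodes the talin binding protein vinculin, held 16602 and 16707 normalized counts on Matrigel, 10604 to 11083 on VN and 10093 to 10596 on VNP2, log2 fold changes of -0.62 (SE 0.0350, adjusted p = 1.66e-06 in edgeR) and -0.68 (SE 0.0350, adjusted p = 6.26e-07). TLN1, which encodes talin itself, fell on both, by log2 values of -0.56 (VN) and -0.55 (VNP2). BCAR1, a scaffold that is phosphorylated when integrins are stretched, fell on both (-0.76 for VN, -0.53 for VNP2), and so did the tensin gene TNS3 (-0.46 and -0.55). Between VNP2 and VN edgeR called 0 of the 28, against 1 in DESeq2 and 0 in limma, with 1 higher and 3 lower at an unadjusted p under 0.05. The share called over all genes in this pair was 5.18%, with 3.07% higher and 2.1% lower. A count of 0 or 1 of 28 is close to that share. Without VN replicate 1, 13 were lower on VN and 14 lower on VNP2 than on Matrigel, and 1 rose and 1 fell between VNP2 and VN.

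Most ligands of these receptors were measured in the same libraries, and 10 of them were called between VNP2 and VN, beside 5.18% of all genes. Of 23 ligand genes 21 were tested, and on VN 12 were lower than on Matrigel and 1 higher (median log2 fold change -0.19), while on VNP2 11 were lower and 2 higher (median -0.30). Beside these stand 9.41% of all genes lower and 5.81% higher on VN, and 9.13% lower and 7.45% higher on VNP2. VTN itself, named here because its protein is the coating and not by the rule for named genes, was at 0.661 to 0.998 TPM in all libraries and was called in no pair. The matricellular genes CCN1, CCN2 and THBS1 had the largest falls. CCN1 held 10049 and 10654 normalized counts on Matrigel, 3092 to 3378 on VN and 2308 to 2443 on VNP2 (log2 fold changes against Matrigel -1.69, SE 0.0472, and -2.12, SE 0.0478, edgeR adjusted p = 4.36e-08 and 7.89e-09). The log2 fold changes of CCN2 were -1.32 on VN and -0.96 on VNP2, and those of THBS1 were -1.06 and -1.42. On VNP2 against Matrigel the 2 that rose were EMILIN1 (0.40), which encodes an elastic fibre protein, and L1CAM (0.39), a neural adhesion molecule with an RGD site.

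Between VNP2 and VN, 4 ligand genes were higher on VNP2 and 6 lower, with a median log2 fold change of -0.017. Over all genes 3.07% were higher and 2.1% lower in this pair. FN1, the gene of the ligand of the ITGA5 receptor, was measured at 33002 and 32086 normalized counts on Matrigel, 44409, 41421 and 41357 on VN against 25621, 25498 and 25676 on VNP2. It was highest on VN and lowest on VNP2 with no overlap, and it rose by 0.38 on VN against Matrigel (edgeR adjusted p = 7.68e-05) and was lower by a log2 difference of -0.73 on VNP2 than on VN (SE 0.0327, adjusted p = 2.91e-06). On VNP2 against Matrigel FN1 was lower as well (-0.35). SPP1, which encodes osteopontin, a ligand of ITGAV receptors, held 1454 and 1469 normalized counts on Matrigel, 888 to 1056 on VN and 1510.2 to 1654 on VNP2. Like ITGB5 it was lowest on VN, and it was higher on VNP2 than on VN by 0.67 (SE 0.0671, adjusted p = 0.000337). NPNT, the gene of nephronectin, the ligand of the ITGA8 receptor, held 57.8 and 49.7 normalized counts on Matrigel, 74.8, 73.7 and 62.7 on VN against 41.0, 29.6 and 18.2 on VNP2. The VNP2 libraries were the lowest, in the opposite direction to ITGA8, and differed from VN by -1.28 on the log2 scale (SE 0.260, edgeR adjusted p = 0.0187). EDIL3, which encodes an RGD protein of endothelium and brain, differed by -0.48, and CCN2 and L1CAM were higher on VNP2 by 0.36 and 0.37. Without VN replicate 1 the counts were 5 higher and 6 lower, and on VN against Matrigel they stayed at 1 higher and 12 lower.

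ITGAV receptors also act on latent complexes of TGF-beta, through an RGD site in the propeptides of TGFB1 and TGFB3 but not of TGFB2. Of 9 genes of latent TGF-beta complexes, 3 were lower and 1 higher on VN than on Matrigel (median log2 fold change -0.31). On VNP2 4 were lower and 1 higher than on Matrigel (median -0.14). Shares over all genes were 9.41% lower and 5.81% higher on VN, and 9.13% lower and 7.45% higher on VNP2. TGFB2 held 2087 and 2369 normalized counts on Matrigel, 778 to 914 on VN and 895 to 949 on VNP2, with log2 fold changes of -1.39 and -1.271 (edgeR adjusted p = 1.47e-06 and 1.68e-06). TGFB1 fell on both, with log2 fold changes of -0.41 and -0.50. TGFB3 was lower on VNP2 (-0.48) and was not called on VN (-0.11). The gene that was higher on both coatings was LTBP4 (0.25 and 0.20). LTBP1, which tethers the latent complex to the matrix, was lower on both (-0.31 and -0.14), and it was higher on VNP2 than on VN by 0.17. Between VNP2 and VN edgeR called 1 of the 9 genes higher and 0 lower, beside 3.07% and 2.1% of all genes. That pair had 1 higher and 1 lower without VN replicate 1, and without length offsets 0 were higher. The counts of genes raised against Matrigel were 0 without either Matrigel library.

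Other integrin subunits were set beside these genes to see which of them moved on a larger scale. Of 19 further subunit genes, ITGA2B and ITGB6 can take part in RGD binding receptors. ITGB6 was at 0 in every library, and ITGA2B, at 0.761 to 1.29 TPM, was called in no pair. Among the 17 subunits of other receptors 12 were tested, of which 5 were lower on VN than on Matrigel and 4 lower on VNP2, with 0 higher in both and medians of -0.23 and -0.27. The shares lower over all genes were 9.41% on VN and 9.13% on VNP2. Leaving out VN replicate 1 gave 6 lower on VN and 5 on VNP2. ITGA4, a partner of ITGB1 that binds fibronectin without RGD, held 1170.0 and 1255 normalized counts on Matrigel, 409 to 508 on VN and 245 to 285 on VNP2. The 3 groups did not overlap, and the log2 fold changes of ITGA4 were -1.39 for VN and -2.22 for VNP2 against Matrigel and -0.83 for VNP2 against VN (edgeR adjusted p = 7.1e-06, 2.35e-07 and 0.000735). ITGA3, a laminin receptor chain, fell as well (-1.26 and -1.31), and so did the collagen receptor chain ITGA1 (-0.81 and -0.75). ITGA9 was higher on VNP2 than on VN by 0.41. All of these alpha chains pair with ITGB1, and the falls of ITGA4, ITGA3 and ITGA1 were larger on this scale than the -0.34 of ITGB1, with no test of that difference.

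**Figure D4:**
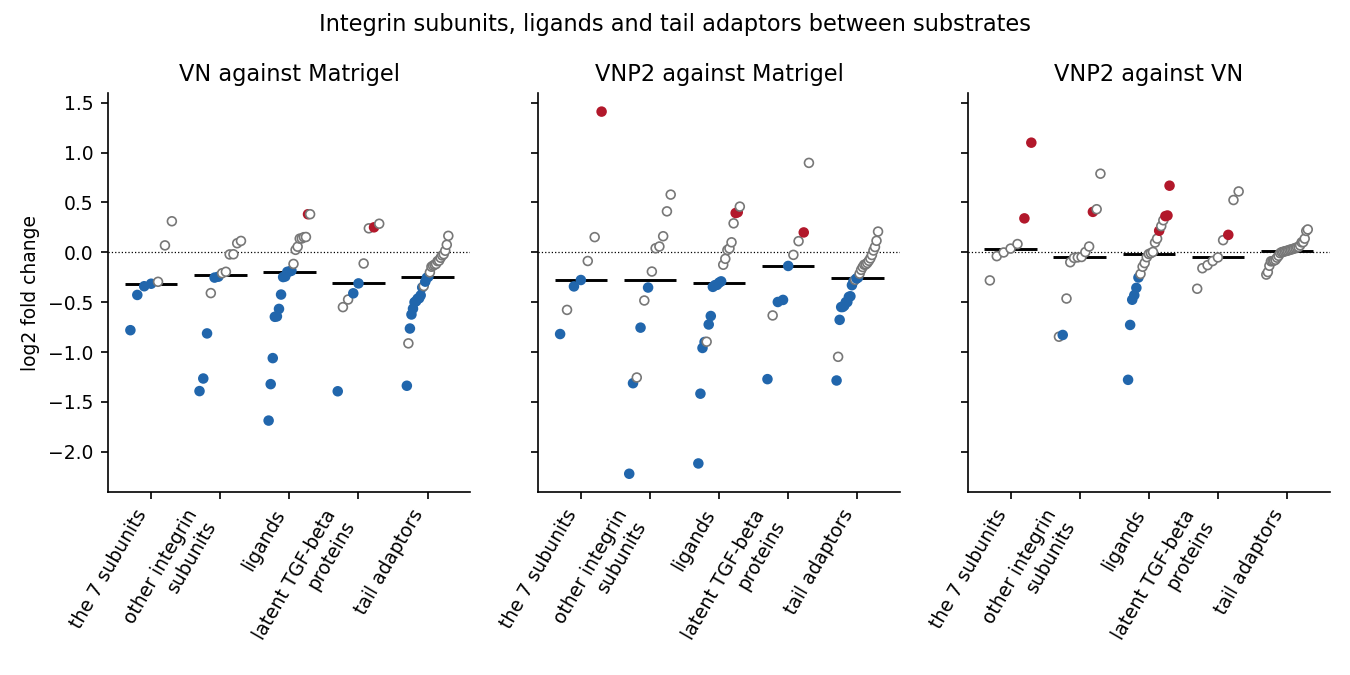
Log2 fold changes (y) of the tested genes of 5 lists (x) in the 3 pairs of substrates, each point a gene, sorted within its list, with a black bar at the list median. Filled points were called (blue lower, red higher). On both coatings 13 of 28 tail adaptors are called lower against Matrigel, beside 9.41% (VN) and 9.13% (VNP2) of all genes. Between VNP2 and VN edgeR calls none of them, beside 5.18% of all genes.

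Markers of other cells that the cultures could hold moved with the coating. Beside the counts of called markers stand 15.2% of all genes called on VN and 16.6% on VNP2, each against Matrigel. The smooth muscle and pericyte markers, of which 4 of 6 were tested, summed to 602 to 632 TPM on Matrigel, 162 to 172 TPM on VN and 130.4 to 159.6 TPM on VNP2. Of these sums TAGLN alone held 484.5 and 510.4 TPM on Matrigel, 116.7 to 124.8 TPM on VN and 92.25 to 123.4 TPM on VNP2. All 4 tested (TAGLN, ACTA2, CNN1 and RGS5) were lower on both coatings, whereas the defining markers MYH11 and DES stayed at or below 0.1203 and 0.2725 TPM. They moved in the same direction as ITGA5, ITGB1, ITGAV and the tail adaptors, and their part in these results was not tested. Mesenchymal and fibroblast markers summed to 512 and 521 TPM on Matrigel, 579 to 616 TPM on VN and 501 to 536 TPM on VNP2, where VN raised 3 of the 8 and lowered 2, and VNP2 raised 5 and lowered 2. OPC markers summed to 107 to 108.5 TPM on Matrigel, 136 to 138 TPM on VN and 138 to 145.5 TPM on VNP2, with 2 of 5 higher on VN and 5 of 5 on VNP2. Neuron markers summed to 898 and 934 TPM on Matrigel, 1024 to 1063 TPM on VN and 1066 to 1081 TPM on VNP2, with 4 and 5 of 8 higher and 0 lower in both comparisons with Matrigel. Progenitor and radial glia markers summed to 3631 and 3703 TPM on Matrigel, 3139 to 3196 TPM on VN and 3418 to 3465 TPM on VNP2, sums in which VIM alone held 1898 to 2566 TPM. Of the 7 tested, VIM and NES were lower on both coatings, while HES1, HES5 and SOX9 were higher on VN and HES1, FABP7 and SOX9 on VNP2, and the list medians were 0.16 and 0.21. The neural crest sums were 55.4 and 55.7 TPM on Matrigel, 38.2 to 38.9 TPM on VN and 50.8 to 52.8 TPM on VNP2, of which ETS1 held 28.6 and 30.1, 10.8 to 12.9 and 15.1 to 16.5 TPM. ETS1 was the only neural crest marker of the 5 tested that was lower, on both coatings, whereas TFAP2A and NGFR were higher on VNP2 than on Matrigel. Endothelial markers summed to 10.28 to 12.02 TPM, of which KDR, called in no pair, held 7.82 to 9.37 TPM, while CDH5 (log2 fold changes -1.92 and -1.60) and TEK (-0.99 and -1.36) fell on VN and on VNP2. Pluripotency markers summed to 91.2 and 95.9 TPM on Matrigel, 79.9 to 81.9 TPM on VN and 75.7 to 79.6 TPM on VNP2. Of the 5 tested, 1 was lower and 0 higher on VN than on Matrigel, and 2 were lower and 1 higher on VNP2. LIN28A fell on both coatings (-0.56 and -0.67), and POU5F1 was lower on VNP2 than on Matrigel (-1.26) and on VN (-1.56). DPPA4 was higher on VNP2 than on Matrigel (0.18), and NANOG and GDF3 were called in no pair. The part of these markers in the results was not tested either. Astrocyte markers summed to 0.268 to 0.704 TPM in all libraries.

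Among themselves, the 7 genes fell into different patterns over the 8 libraries. ITGA5 and ITGB1, which form the fibronectin receptor, had the highest correlation of log2 normalized counts (Pearson's r = 0.983), followed by ITGAV with ITGB1 (0.948) and with ITGA5 (0.930). ITGA8 ran opposite to ITGB3 (-0.781), and ITGB5 had values between -0.190 and 0.564 with the others. These values are a description over 8 libraries that share 3 coatings. Among 12995 genes, or 12996 for ITGA8, genes among the most like each subunit were TPM4, CDH2 and OXTR for ITGA5 (r of 0.993 to 0.996), XBP1, ENSG00000250899 and LIMA1 for ITGB1 (0.996 to 0.997) and PWP1, PNO1 and FAM131B-AS2 for ITGAV (0.981 to 0.986). For ITGB5 they were JUN, TIMM21 and RUVBL1 (0.975 to 0.983), for ITGA8 C1orf21 and the OPC marker NKX2-2 (0.979 and 0.971), for ITGB3 JTB, MZT1 and B4GALNT3 (0.960 to 0.967) and for ITGB8 MOB1B, SRRM3 and PAFAH1B1 (0.946 to 0.970).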

How the data were processed

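Stranded polyadenylated RNA libraries of H9 derived OPCs on Matrigel (n = 2), VN (n = 3) and VNP2 (n = 3) were used. The authors trimmed the reads with TrimGalore and ran Salmon on GENCODE v32 transcripts (GRCh38.p13 in the submitters' processing notes), and deposited estimated counts and TPM per transcript for each library. The normalized counts of each gene, which the authors deposited as a signal scaled in DESeq2 (1.27.12 in the notes) after tximport, served as a check and as an alternative, and the group means of the 7 genes here were 99.9 to 100.1% of it. By identifier, 205225 of 226608 transcripts, with 98.8 to 98.9% of the estimated counts, were matched to GENCODE v29, the older release at hand, so reads of the rest are missing from some genes.

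Estimated counts were summed per gene, rounded, filtered with filterByExpr (minimum 10, total 15) and fitted in edgeR 4.0.16 (R 4.3.3) with TMM, offsets for transcript length, all 8 libraries and no replicate block. Tests were two-sided quasi-likelihood F-tests with Benjamini-Hochberg adjustment over 18201 genes. TPM was summed per gene. Coding tails and identities (BLOSUM62 global alignments in Biopython 1.88, identity over aligned residue pairs) came from the leading transcript of each gene. On simulated data of 17974 genes, changes were set in genes with a mean of at least 50 normalized counts and read for VNP2 against VN. There 80 of 100 genes changed 1.5-fold, 91 of 100 changed 2-fold and 14 of 17774 unchanged genes were called. Changes below 1.5-fold were not simulated, and the detection of changes against the 2 Matrigel libraries was not assessed. The genes and lists were chosen with earlier results of these data known. Beside the 7 genes, the text names from each list that holds no markers at most 3 genes called in each direction per pair with the largest change and a mean of at least 50 normalized counts, the 3 genes most correlated with each subunit (mean of at least 100; 1 of those for ITGA8 is not reported here), and any marker. Tried in place of these settings were a replicate block, RLE scaling, the omission of length offsets or of the filter, a filter of 50 counts in all libraries, DESeq2 1.42.0, fits of only the pair compared, limma 3.58.1 on log2(authors' value + 1), and leaving out each library. The same alternatives for the lists were chosen after seeing the data. Group means carry SDs between libraries, and sampling error is largest for ITGA8 and ITGB3.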

Additional observations from a re-analysis of the deposited data

How the results depend on the processing

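The numbers of the 7 genes called in each comparison stayed within 1.5 times their values in all 31 counts from other settings. The same held for all 32 counts from fits with a library left out. Each count combines a comparison with a setting or a left-out library, so the settings and fits were fewer than the counts. Of the fold changes, 162 from other settings and 158 from fits with a library left out kept direction and call. Differences near 0 changed sign for VNP2 against VN: ITGA5 was 0.032 without length offsets, and ITGB1 was 0.0017 without the filter and 0.0009 in limma. With a library left out, VNP2 against VN ranged from -0.088 to 0.027 for ITGA5, from -0.022 to 0.016 for ITGB1 and from -0.017 to 0.067 for ITGAV, and VN against Matrigel from -0.0018 to 0.13 for ITGB8. None of these passed the test, and the cause was not tested.

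ITGB3 on VNP2 against Matrigel passed without length offsets (-0.63, adjusted p = 0.039), with only that pair (-0.58, adjusted p = 0.044) and without VN replicate 3 (-0.58, adjusted p = 0.0407). ITGAV on VNP2 missed the threshold without Matrigel replicate 2 (-0.25, adjusted p = 0.0508). Same-numbered libraries had correlations of -0.133 to 0.161, so the numbers were not taken to pair them. With the replicate block 5, 4, 5 and 2 of the 7 genes were called across the substrates, on VN, on VNP2 and between VNP2 and VN, ITGB8 on VNP2 against Matrigel passing at 0.20 (adjusted p = 0.0366), and over all genes 3990, 3405, 3155 and 1167. Over the alternatives 9 to 15 tail adaptors were lower on VN and 10 to 15 on VNP2. The 5 other subunits lower on VN became 2 without Matrigel replicate 2, 3 without Matrigel replicate 3 or VN replicate 3 and 3 with only that pair, and the 4 latent TGF-beta genes lower on VNP2 became 2 without either Matrigel library or VNP2 replicate 3. The latent TGF-beta genes higher on VN ranged from 0 to 2, and those higher on VNP2 than on Matrigel or VN from 0 to 1, with 0 for all 3 pairs without length offsets. With 2 Matrigel libraries the fit lends their spread from the other groups, and 53 to 168 counts limit ITGA8 and ITGB3.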
